A study of Mus musculus with 12 samples.

Results

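The lysosomal acid hydrolases and membrane proteins described here are 36 of the 55604 genes counted in each library, chosen by name for their place in the lysosome and found by gene identifier. They fall into 11 proteases and their helpers, 13 glycosidases and sulfatases, 8 lipid hydrolases and activators, and 4 membrane proteins. RNA was sequenced in bulk from macrophages grown from C57BL/6 mouse bone marrow in M-CSF (20 ng/ml) and taken on day 7. The first group of 4 libraries came from macrophages that had been given dead B16-F10 melanoma cells overexpressing STC1 (STC1OE corpses). The second group of 4 came from macrophages given dead control B16-F10 cells (control corpses), and the third group of 4 from macrophages alone. Corpses were added at a ratio stated as 1 to 5, and those left unbound were rinsed off after 20 h. B16-F10 is a pigmented mouse line of the same strain, and STC1 is stanniocalcin 1, a secreted glycoprotein. How the cells were killed, whether either line is a single clone, and whether the construct carries mouse Stc1 sequence are not given in the sources used here.

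Lysosomes are the acid compartment in which a macrophage takes apart what it has engulfed, with separate enzymes for protein, sugar chains and lipid. Most of these enzymes carry a mannose 6-phosphate tag that receptors in the Golgi read to send them to the lysosome, and heavily glycosylated proteins such as Lamp1 and Lamp2 line its membrane. Many of their genes can be switched on together by the transcription factors Tfeb, Tfe3 and Mitf, which bind E-box sequences near the start site. Loss of single enzymes causes the lysosomal storage diseases.

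Libraries held 28488441 to 39981074 counts assigned to genes, so that 3 counts, the upper limit allowed by a count of 0, stood for 0.0750 to 0.105 CPM (counts relative to library size, here scaled by TMM factors). All 36 genes passed the filter on low counts. Stc1 had 2, 3, 7 and 5 counts with STC1OE corpses, 3, 0, 2 and 0 with control corpses, and 0, 2, 0 and 3 in macrophages alone, too few to check the labels. The share of reads that did not align was 14.4% to 17.8% with STC1OE corpses, 10.8% to 11.5% with control corpses and 11.4% to 14.0% in macrophages alone. Libraries 1 and 2 resembled each other, and so did libraries 3 and 4, in the STC1OE group and in macrophages alone, and no label gives a reason. Results between the corpse groups are therefore also given for each of these pairs.

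Transcripts of these genes made up a sizeable part of the macrophages' mRNA, and most of that part came from a handful of them. Their summed level was 59784 ± 689 CPM with STC1OE corpses, 56789 ± 1583 CPM with control corpses and 44474 ± 297 CPM in macrophages alone (SD, n = 4 each). As a share of assigned counts, without TMM factors, the sum was 5.81%, 5.71% and 4.55% in these groups. The 4 libraries with STC1OE corpses lay between 58818 and 60450 CPM, those with control corpses between 55044 and 58438 CPM, and those of macrophages alone between 44143 and 44865 CPM, so that no ranges overlapped with TMM scaling. Per total of assigned counts, without TMM factors, the corpse groups overlapped (57480 to 59203 CPM with STC1OE corpses and 55351 to 58985 CPM with control corpses), and both stayed above macrophages alone (44883 to 45974 CPM). A sum over chosen genes is given as a description, without a test.

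Psap, which encodes prosaposin, the precursor of the saposins that help enzymes reach sphingolipids, was the most abundant of the 36 genes in each group. Per kilobase of exon it stood at 6427 CPM with STC1OE corpses, 5918 CPM with control corpses and 4235 CPM in macrophages alone. Psap and the cysteine protease gene Ctsb alone supplied 29.5% and 24.8% of the summed CPM with STC1OE corpses, and 26.1% each in macrophages alone. The order below Psap differed between the groups. With corpses of either kind the next genes per kilobase were Ctsd, Ctsb and Ctss, whereas in macrophages alone they were Ctss, Ctsb and Ctsd. At the low end were Arsa, Galc, Smpd1 and Arsb, each at or under 10.1 CPM per kilobase in each group. Ifi30, the thiol reductase of the antigen-processing compartment, had only 0.148 to 0.503 CPM in any library. The annotation used here marks its gene model as a processed transcript and not as protein coding, so this value is not read as the level of the enzyme's mRNA.

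**Figure D1:**
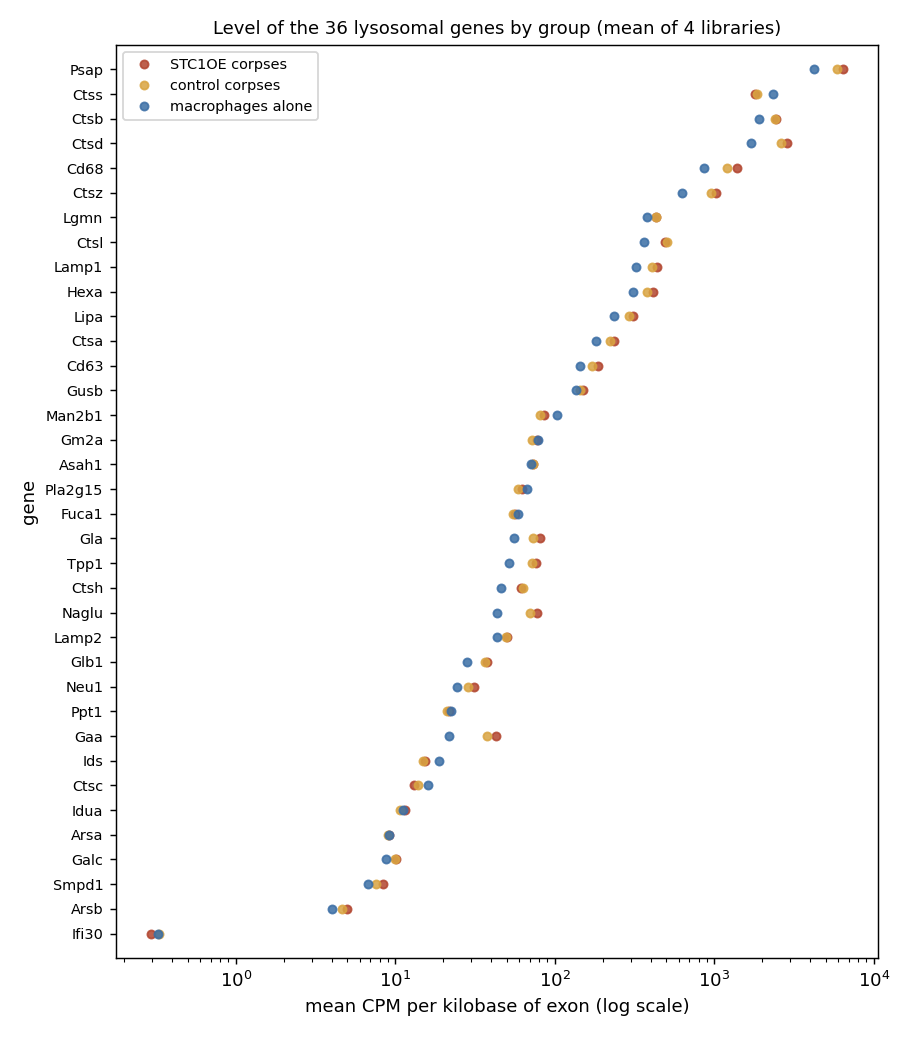
Mean level of each of the 36 lysosomal genes with STC1OE corpses, with control corpses and for macrophages alone (points, 4 libraries each), in CPM per kilobase of exon on a log axis, ordered by the level in macrophages alone. Psap stands highest in every group (6427, 5918 and 4235 CPM per kilobase), and the points of 1 gene lie close together compared with the distance between genes.

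The first question was how the lysosomal genes differed between macrophages given STC1OE corpses and macrophages alone. In that comparison 24 of the 36 were higher and 5 were lower, and 7 did not pass the test. Over all 16406 genes tested, 21.4% were called higher and 22.4% lower (43.8% either way), with a median log2 fold change of -0.03, against a median of 0.33 for the lysosomal genes. With control corpses, 24 were again higher than in macrophages alone, 8 were lower and 4 did not pass, with a median of 0.22. There 19.7% of all genes were called higher and 20.5% lower (40.1% either way), with a median of -0.001. The same 24 genes were higher with both kinds of corpse, where 16.3% of all genes were. With replicates 1 and 2 alone, 23 were higher and 4 lower with STC1OE corpses, where 28.2% of all genes were called either way. With control corpses, 21 were higher and 6 lower from these replicates, where 24.8% of all genes were called. Both comparisons use the same 4 libraries of macrophages alone, so one does not repeat the other. Calls are edgeR quasi-likelihood tests with an adjusted p under 0.05.

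Most of these differences were modest in size. Tested against a fold of 1.2 rather than against no change, 18 lysosomal genes were higher and 1 was lower with STC1OE corpses than in macrophages alone (12.9% of all genes either way), and 14 were higher and 3 lower with control corpses (10.3%). The ranges of the libraries did not overlap for 25 higher and 6 lower genes with STC1OE corpses (19.7% and 20.2% of all genes), and for 23 higher and 8 lower with control corpses (18.3% and 18.9%). In bulk RNA, more transcript per macrophage and more cells of a kind cannot be told apart.

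**Figure D2:**
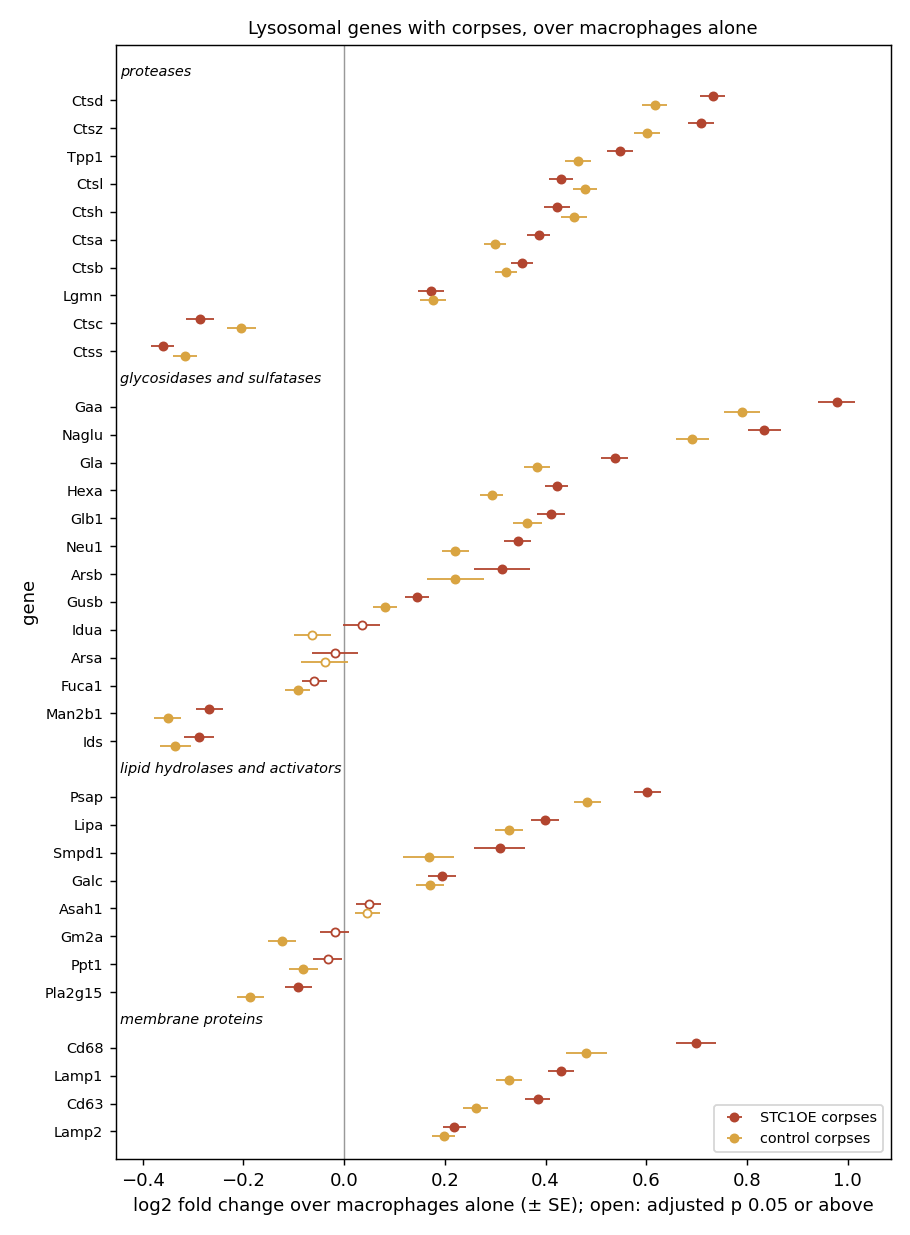
Log2 fold change over macrophages alone for each lysosomal gene, by class, with STC1OE corpses and with control corpses (± SE, 4 libraries a group; open circles did not pass the test). Gaa, at 0.98 and 0.79, lies farthest to the right and Ctss (STC1OE corpses, -0.36) farthest to the left; Ifi30, with few counts, is not drawn.

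Among the proteases, 8 of 11 were higher and 2 were lower with STC1OE corpses than in macrophages alone (median log2 fold change 0.39), and the same counts held with control corpses (median 0.32). Ctsd, the main aspartic protease of the lysosome, had 6567, 6629.6, 6709.8 and 6807 CPM with STC1OE corpses, 6002, 6404, 6020.7 and 6231 CPM with control corpses, and 3892, 4012, 4109 and 4068 CPM in macrophages alone. All libraries with corpses lay far above those without, and those with STC1OE corpses lay above those with control corpses. Its log2 fold change over macrophages alone was 0.73 ± 0.02 (SE; edgeR adjusted p = 1.1e-20) with STC1OE corpses and 0.62 ± 0.02 (adjusted p = 9.53e-19) with control corpses. Ctsz, a carboxypeptidase also called cathepsin X, had 1470.2, 1492, 1509 and 1442 CPM with STC1OE corpses, 1336, 1438, 1326 and 1389.8 CPM with control corpses, and 897, 897, 927 and 897 CPM in macrophages alone. The 3 groups of Ctsz did not overlap, and its log2 fold changes over macrophages alone were 0.71 ± 0.03 (adjusted p = 6.64e-20) and 0.60 ± 0.03 (adjusted p = 4.24e-18).

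The other proteases that were higher with both kinds of corpse were Tpp1, a tripeptidyl peptidase, Ctsl and Ctsb, cysteine endopeptidases, Ctsh, an aminopeptidase, Ctsa, a carboxypeptidase that also protects the sialidase Neu1, and Lgmn, which cuts after asparagine and matures other cathepsins. Their log2 fold changes ran from 0.17 (Lgmn) to 0.55 (Tpp1) with STC1OE corpses and from 0.18 (Lgmn) to 0.48 (Ctsl) with control corpses. Counting at some of these and other lysosomal genes is less certain, since exons overlap other genes and strand use is not stated. The overlap held 39.9% of exon bases for the sulfatase gene Arsb, 34.4% for Ctsd, 26.8% for Ctsl, 18.8% for the sulfatase gene Arsa, 17.4% for Ctsa, and 12.8% each for Ctsb and the hexosaminidase gene Hexa. That of Ctsd, and part of that of Ctsl, is with a gene on the same strand, where strand use makes no difference. The other members shared at most 9.31% of their exon bases.

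Ctss and Ctsc went the other way. Ctss encodes the cysteine protease that trims the invariant chain of MHC class II molecules. It had 2434, 2458, 2491 and 2454 CPM with STC1OE corpses, 2552, 2583, 2466 and 2543 CPM with control corpses, and 3166, 3078, 3210.7 and 3172 CPM in macrophages alone. Both groups with corpses lay wholly below macrophages alone and overlapped each other. The log2 fold changes were -0.36 ± 0.02 (adjusted p = 4.88e-14) with STC1OE corpses and -0.32 ± 0.02 (adjusted p = 1.33e-12) with control corpses. Ctsc, the dipeptidyl peptidase that activates serine proteases of immune cell granules, averaged 76.7 ± 1.33 CPM with STC1OE corpses, 81.2 ± 1.69 CPM with control corpses and 93.6 ± 0.873 CPM in macrophages alone (SD, n = 4 each). It was lower by edgeR in both comparisons with macrophages alone, at -0.29 ± 0.03 with STC1OE corpses (adjusted p = 4.97e-10) and -0.20 ± 0.03 with control corpses (adjusted p = 3.52e-07).

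Of the 13 glycosidases and sulfatases, 8 were higher and 2 lower with STC1OE corpses than in macrophages alone (median 0.31), and with control corpses 8 were higher and 3 lower (median 0.22). Gaa, the acid glucosidase that degrades glycogen, had the largest difference of all 36 genes. It had 192, 209.7, 206 and 217 CPM with STC1OE corpses, 170.5, 188, 178 and 188 CPM with control corpses, and 102, 103, 108 and 106 CPM in macrophages alone. Every library with corpses was well above every one without. This was a log2 fold change of 0.98 ± 0.04, or 1.97-fold, with STC1OE corpses (adjusted p = 3.53e-16) and of 0.79 ± 0.04, or 1.73-fold, with control corpses (adjusted p = 2.42e-14).

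Naglu, which removes N-acetylglucosamine from heparan sulfate, had 195, 205, 205 and 217 CPM with STC1OE corpses, 175, 197, 185 and 188 CPM with control corpses, and 114, 118, 113 and 116 CPM in macrophages alone. The libraries with corpses again lay wholly above the rest, and the lowest with STC1OE corpses fell just inside the range of those with control corpses. Its log2 fold changes over macrophages alone were 0.83 ± 0.03 (adjusted p = 4.59e-18) and 0.69 ± 0.03 (adjusted p = 3.81e-16). Smaller rises with both kinds of corpse were those of Gla, the galactosidase that acts on globotriaosylceramide, Hexa, the alpha subunit of hexosaminidase, Glb1, a beta-galactosidase, the sialidase Neu1, the arylsulfatase Arsb and the beta-glucuronidase Gusb. These ran from 0.15 (Gusb) to 0.54 (Gla) with STC1OE corpses and from 0.08 (Gusb) to 0.38 (Gla) with control corpses. Arsb differed between the pairs of replicates: over macrophages alone it was at 0.15 (adjusted p = 0.0954) with STC1OE and 0.14 (adjusted p = 0.115) with control corpses from replicates 1 and 2 alone, and at 0.48 and 0.30 from replicates 3 and 4 alone, where both passed. With replicates 1 and 2 alone, Gusb also lost its call with control corpses (0.09, adjusted p = 0.16).

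Man2b1, a mannosidase, and Ids, the sulfatase that begins the degradation of heparan and dermatan sulfate, were lower with corpses. Man2b1 had 668, 685, 682 and 710.1 CPM with STC1OE corpses, 625, 666, 646 and 657 CPM with control corpses, and 796, 817, 860.5 and 832 CPM in macrophages alone. Ids had 78.7, 77.4, 78.5 and 80.0 CPM with STC1OE corpses, 78.5, 77.4, 73.5 and 75.3 CPM with control corpses, and 100.6, 97.0, 93.1 and 93.9 CPM in macrophages alone. For neither gene did the libraries with corpses overlap those without. The log2 fold changes of Man2b1 were -0.27 ± 0.03 with STC1OE corpses (adjusted p = 9.06e-10) and -0.35 ± 0.03 with control corpses (adjusted p = 3.22e-12), and those of Ids were -0.29 ± 0.03 (adjusted p = 2.82e-09) and -0.34 ± 0.03 (adjusted p = 1.3e-10). Enzymes of heparan sulfate degradation, a grouping made after the values were seen, did not share a direction: Naglu was higher, Ids was lower and Idua, the iduronidase that acts after Ids, was not called (log2 fold changes 0.04 and -0.06). Fuca1, a fucosidase, was called lower with control corpses (-0.09 ± 0.03, adjusted p = 0.00368), and its value with STC1OE corpses, -0.06 ± 0.03, did not pass (adjusted p = 0.0603). The call of Fuca1 with control corpses was lost with replicates 1 and 2 alone (-0.11, adjusted p = 0.0779). Arsa, the sulfatase for sulfatide, was called in neither comparison with macrophages alone (-0.02 and -0.04).

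**Figure D3:**
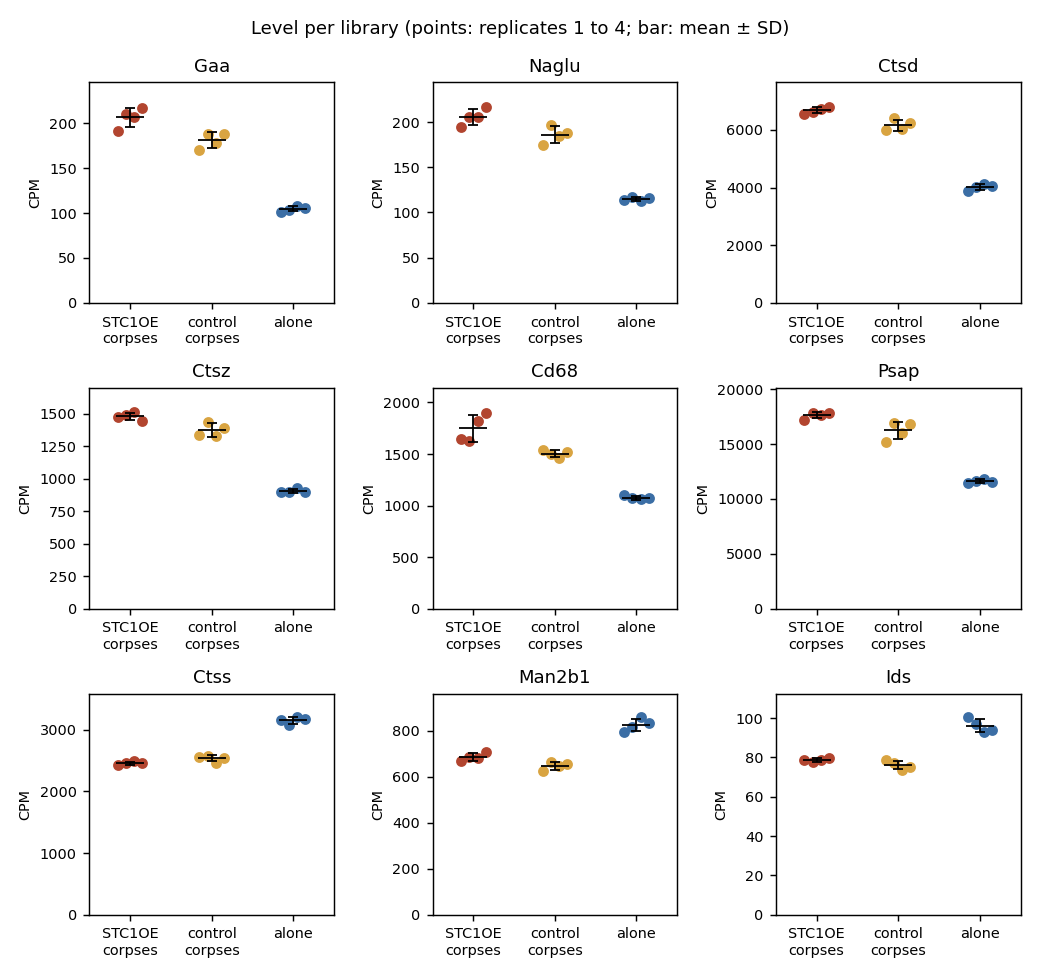
CPM of 9 lysosomal genes in each library (points, replicates 1 to 4) with STC1OE corpses, with control corpses and for macrophages alone, with the mean ± SD; the axes start at 0. Gaa, Naglu, Ctsd, Ctsz, Cd68 and Psap lie above macrophages alone in every library with corpses, and Ctss, Man2b1 and Ids lie below.

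Among the lipid hydrolases and activators the directions were mixed. With STC1OE corpses 4 of 8 were higher than in macrophages alone and 1 was lower (median 0.12), and with control corpses 4 were higher and 3 lower (median 0.11). Psap had 17226, 17825, 17632 and 17864 CPM with STC1OE corpses, 15208, 16946, 16000.0 and 16799 CPM with control corpses, and 11419, 11631, 11856 and 11574 CPM in macrophages alone. No ranges of Psap overlapped. The log2 fold changes over macrophages alone were 0.60 ± 0.03 (adjusted p = 1.25e-17) with STC1OE corpses and 0.48 ± 0.03 (adjusted p = 3.06e-15) with control corpses.

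Lipa, the acid lipase that frees cholesterol and fatty acids from lipoprotein lipids, averaged 2093 ± 43.8 CPM with STC1OE corpses, 1992 ± 75.3 CPM with control corpses and 1587 ± 53.0 CPM in macrophages alone (SD, n = 4 each). Its log2 fold changes were 0.40 ± 0.03 (adjusted p = 3e-13) and 0.33 ± 0.03 (adjusted p = 3.36e-11). Smpd1, acid sphingomyelinase, and Galc, galactosylceramidase, were also higher with both kinds of corpse, at 0.31 and 0.19 with STC1OE corpses and 0.17 and 0.17 with control corpses, where the call of Smpd1 was lost with replicates 1 and 2 alone (0.15, adjusted p = 0.239). Pla2g15, a lysosomal phospholipase, was lower with both, at -0.09 ± 0.03 with STC1OE corpses (adjusted p = 0.00734) and -0.19 ± 0.03 with control corpses (adjusted p = 1.51e-06). Gm2a, the activator that presents ganglioside to hexosaminidase, and Ppt1, which removes palmitate from proteins, were called lower with control corpses (-0.12 and -0.08) and were not called with STC1OE corpses (-0.02 and -0.03). The call of Ppt1 was lost in 8 of 12 cases of 1 library left out (adjusted p up to 0.135), and that of Pla2g15 with STC1OE corpses without replicate 1 or 4 of that group (adjusted p up to 0.0715). Asah1, acid ceramidase, was called in neither comparison with macrophages alone (0.05 in each).

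All 4 membrane proteins were higher with both kinds of corpse, with medians of 0.41 with STC1OE corpses and 0.29 with control corpses. Cd68, a glycoprotein of macrophage endosomes and lysosomes, had 1649, 1629, 1817 and 1901 CPM with STC1OE corpses, 1537, 1504, 1459 and 1519 CPM with control corpses, and 1107, 1069.9, 1060.2 and 1074 CPM in macrophages alone. The 3 groups did not overlap, and libraries 3 and 4 with STC1OE corpses stood above libraries 1 and 2. The log2 fold changes of Cd68 over macrophages alone were 0.70 ± 0.04 (adjusted p = 2.9e-10) and 0.48 ± 0.04 (adjusted p = 4.24e-08). Lamp1, a major glycoprotein of the lysosomal membrane, averaged 1169 ± 34.6 CPM with STC1OE corpses, 1088 ± 24.7 CPM with control corpses and 868 ± 18.1 CPM in macrophages alone, with log2 fold changes of 0.43 and 0.33. Cd63, a tetraspanin of late endosomes and exosomes that melanosomes also carry, rose by 0.38 and 0.26, and Lamp2, which is also needed for chaperone-mediated autophagy, by 0.22 and 0.20.

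**Figure D4:**
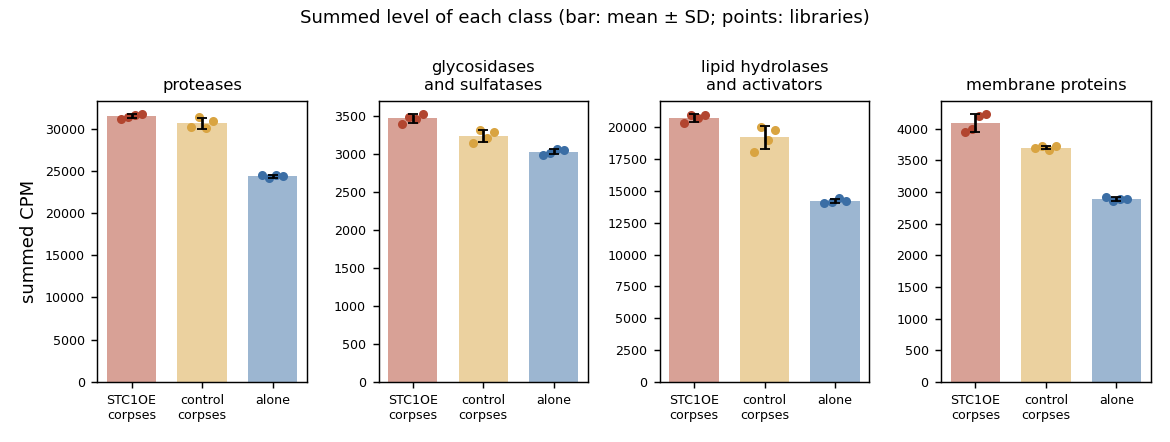
Summed CPM of the genes in each class with STC1OE corpses, with control corpses and for macrophages alone (bars, mean ± SD; points, libraries). The proteases average 31477, 30647 and 24348 CPM and the lipid class, mostly Psap, 20746, 19204 and 14209 CPM.

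The classes differed in how far their sums moved. The membrane proteins summed to 4091 ± 143 CPM with STC1OE corpses, 3702 ± 28.1 CPM with control corpses and 2889 ± 28.6 CPM in macrophages alone, and their 3 ranges did not overlap. The glycosidases and sulfatases summed to 3470.1 ± 56.1 CPM with STC1OE corpses, 3237 ± 78.3 CPM with control corpses and 3029 ± 32.5 CPM in macrophages alone, without overlap with TMM scaling. Per total of assigned counts this class overlapped between the corpse groups (3337 to 3451 CPM with STC1OE corpses and 3158 to 3344 CPM with control corpses). The proteases, at 31477 ± 254 CPM with STC1OE corpses and 30647 ± 644 CPM with control corpses, overlapped between the corpse groups and lay well above the 24348 ± 146.8 CPM of macrophages alone (SD, n = 4 each). Per total of assigned counts the order of the corpse groups turned for the proteases, at 30585 ± 374 CPM with STC1OE corpses and 30793 ± 684 CPM with control corpses, again with overlap.

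The second question was whether the lysosomal genes differed between the kinds of corpse. Of the 36, 14 were higher with STC1OE than with control corpses and none were lower by edgeR (1 at an unadjusted p under 0.05, and 0 by DESeq2), while 22 did not pass. Over all genes tested, 3.33% were called higher and 2.12% lower (5.44% either way). The median log2 fold change was 0.08 for the lysosomal genes and -0.006 for all genes, and 30 of the 36 were above 0. None reached a call against a fold of 1.2, where 0.0244% of all genes did. The libraries did not overlap for 17 genes that were higher (5.86% of all genes) and for 1, Ctsc, that was lower (4.85%). These values use TMM factors, and a lower factor raises the CPM of every gene in a library. The factors were 0.986, 0.989, 0.963 and 0.951 for STC1OE replicates 1 to 4, and 1 to 1.01 with control corpses. Calls of single genes without TMM factors were not made, and the part of the factors in these differences was not tested.

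By class, 3 of 11 proteases, 5 of 13 glycosidases and sulfatases, 3 of 8 lipid genes and 3 of 4 membrane proteins were higher with STC1OE than with control corpses, with medians of -0.004, 0.09, 0.08 and 0.11. The largest difference was that of Cd68, whose values are given above, at 0.22 ± 0.04 or 1.16-fold (adjusted p = 0.00463). Gaa followed at 0.19 ± 0.04 (adjusted p = 0.00246), then Gla at 0.15 ± 0.03 (adjusted p = 0.000376) and Naglu at 0.14 ± 0.03 (adjusted p = 0.00696). Gla had 256, 266, 268 and 267 CPM with STC1OE corpses, against 229.6, 247, 236 and 238 CPM with control corpses, and each of the first was above each of the second.

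Hexa had 808, 833, 824 and 824 CPM with STC1OE corpses, against 743, 762, 734 and 768 CPM with control corpses, without overlap (0.13 ± 0.02, adjusted p = 0.000641). Cd63 had 693, 698.5, 697.5 and 676 CPM with STC1OE corpses, against 629.7, 649, 625 and 634 CPM with control corpses, also without overlap (0.12 ± 0.02, adjusted p = 0.00144). Neu1 (0.12), Psap (0.12), Ctsd (0.12), Ctsz (0.11), Lamp1 (0.10) and Ctsa (0.09) completed the 12 genes that were higher in both comparisons with macrophages alone and also between the corpse groups.

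The remaining 2 of the 14 were Gm2a and Pla2g15, whose levels with control corpses were below those of macrophages alone. Gm2a had 307, 308, 318.5 and 343 CPM with STC1OE corpses, 296, 301, 295 and 296 CPM with control corpses, and 327, 322, 325 and 319 CPM in macrophages alone. Its levels with STC1OE corpses lay above those with control corpses and on both sides of those in macrophages alone (STC1OE over control 0.10 ± 0.03, adjusted p = 0.024). Pla2g15 averaged 189 ± 3.47 CPM with STC1OE corpses, 177 ± 7.36 CPM with control corpses and 201 ± 2.95 CPM in macrophages alone (STC1OE over control 0.10 ± 0.03, adjusted p = 0.0354). The genes furthest below 0 without a call, apart from the few counts of Ifi30, were Ctsc (-0.08 ± 0.03, adjusted p = 0.0808), Ctsl (-0.05 ± 0.02, adjusted p = 0.277) and Ctss (-0.04 ± 0.02, adjusted p = 0.301).

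These differences between the corpse groups were small, and the number of calls depended on the libraries used. With replicates 1 and 2 of each group alone, none of the 36 was called by edgeR in either direction (12 higher and 1 lower at an unadjusted p under 0.05; median 0.07, with 30 above 0), and 0.2% of all genes were. With replicates 3 and 4 alone, 19 were higher and 0 lower (median 0.10, with 32 above 0), and 11.6% of all genes were called. Apart from Ifi30, whose few counts gave 0.13 and -0.43, Cd68 moved most between these pairs, at 0.11 with replicates 1 and 2 and 0.32 with replicates 3 and 4, and Gm2a was at 0.04 and 0.16. With each of the 12 libraries left out in turn, Cd63, Cd68, Ctsd, Gaa, Gla, Hexa, Naglu, Neu1 and Psap kept their calls. Calls of Ctsa (4 cases, adjusted p up to 0.0914), Ctsz (3 cases, up to 0.0824), Lamp1 (2 cases, up to 0.0854), Gm2a (5 cases, up to 0.115) and Pla2g15 (5 cases, up to 0.166) were lost without some libraries, among them STC1OE replicate 3 and control replicate 1, either of which left 9 genes higher. Libraries 3 and 4 with STC1OE corpses also had the highest shares of reads that did not align, 17.8% and 17.5%, and the part of this in the result was not tested.

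**Figure D5:**
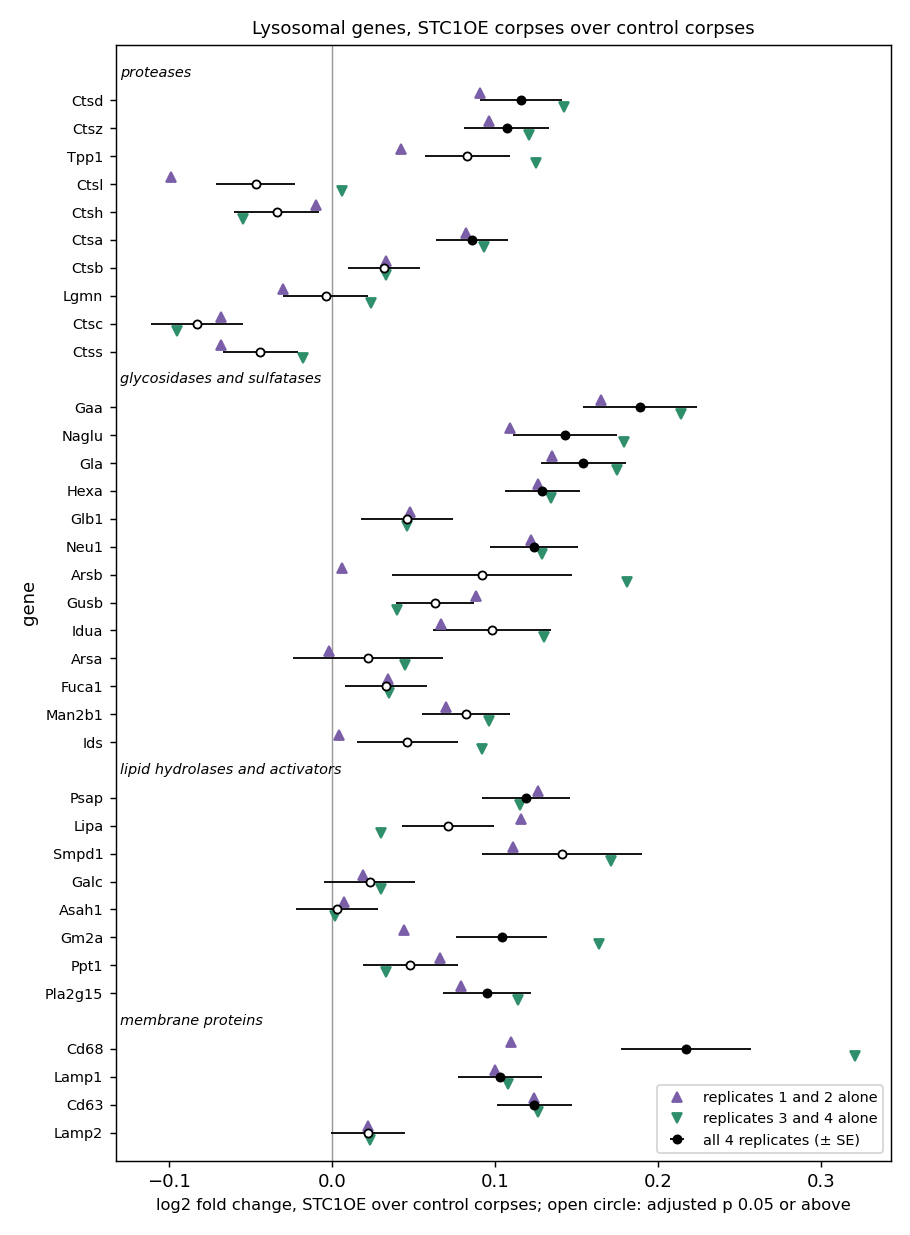
Log2 fold change of each lysosomal gene with STC1OE over control corpses, from all 4 replicates (circles, ± SE; open circles did not pass the test) and from replicates 1 and 2 or 3 and 4 alone (triangles). The circle of Cd68 lies farthest to the right at 0.22, and most genes lie above 0 with either pair of replicates; Ifi30, with few counts, is not drawn.

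Promoter sequence was compared for what the genes share. RefSeq windows (GRCm38.p6, from 250 bases before to 50 after the start) were found for 33 of the 36 genes, in 36 windows, and were searched on both strands for the E-box letters CACGTG, for TCACGTGA, the core of the lysosomal CLEAR element, which holds CACGTG within it, and for TGANTCA, an AP-1 site. CACGTG was found in 11 of the 36 windows (30.6%), against 7.15% of all 32851 windows. TCACGTGA was found in 4 (11.1%, against 0.974%) and TGANTCA in 4 (11.1%, against 7.81%). Of the 22 genes with a window that were higher with both kinds of corpse, 9 held CACGTG (Ctsa, Ctsd, Ctsl, Lgmn, Gaa, Gla, Glb1, Naglu and Lamp1) and 3 TCACGTGA (Ctsa, Ctsd and Gla). Of the 11 others, 2 held CACGTG (Ifi30 and Arsa) and 1 TCACGTGA (Ifi30). The genes were chosen as lysosomal and the CLEAR element is a lysosomal one, so the shares against all windows say nothing about the response to corpses. Repeats of a window, where present, were removed among the members only. A match describes the letters in a window, and no binding was measured.

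Stretches around these letters are shown for the 6 genes that hold them and had the largest differences from macrophages alone, 5′ to 3′ along the gene's own strand, with the motif in capitals. They lie at chr11:119267793-119267858 (plus strand, Gaa), chr11:101069991-101070056 (plus strand, Naglu), chr7:142387890-142388077 (minus strand, Ctsd), chrX:134601164-134601255 (minus strand, Gla), chr13:64370721-64370770 (minus strand, Ctsl) and chr8:13159070-13159160 (plus strand, Lamp1). Gaa, Naglu and Ctsl hold 1 CACGTG there, Ctsd and Gla hold 2 and Lamp1 holds 4.
Gaa: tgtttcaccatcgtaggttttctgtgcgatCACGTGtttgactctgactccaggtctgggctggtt
Naglu: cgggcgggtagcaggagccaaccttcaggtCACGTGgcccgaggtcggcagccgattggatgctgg
Ctsd: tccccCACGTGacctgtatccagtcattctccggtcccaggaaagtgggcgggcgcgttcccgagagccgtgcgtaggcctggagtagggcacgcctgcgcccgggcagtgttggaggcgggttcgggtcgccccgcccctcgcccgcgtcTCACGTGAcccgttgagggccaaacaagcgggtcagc
Gla: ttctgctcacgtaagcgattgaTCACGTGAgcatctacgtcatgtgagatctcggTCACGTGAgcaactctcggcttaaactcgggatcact
Ctsl: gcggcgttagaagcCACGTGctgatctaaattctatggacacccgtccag
Lamp1: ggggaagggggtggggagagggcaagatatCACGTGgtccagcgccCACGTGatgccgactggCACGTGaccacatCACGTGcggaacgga
The motif of Gaa begins 140 bases before the start, that of Naglu 73 and that of Ctsl 236. The farthest of Ctsd, Gla and Lamp1 begin 245, 227 and 61 bases before it. With STC1OE corpses the log2 fold change over macrophages alone was 0.54 for Gla, with 2 copies of TCACGTGA, and 0.43 for Lamp1, with 4 of CACGTG, against 0.98 and 0.83 for Gaa and Naglu, with 1 each. Psap, Ctsz and Cd68, among the 6 genes with the largest rises, had windows without CACGTG.

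Transcripts of the factors that bind such sequences were mostly lower with corpses. Mitf had 108, 108, 109 and 111 CPM with STC1OE corpses, 109, 107, 109.7 and 112 CPM with control corpses, and 168, 161, 164 and 166 CPM in macrophages alone. Both groups with corpses lay far below macrophages alone and overlapped each other, with log2 fold changes of -0.59 ± 0.03 (adjusted p = 3.16e-18) with STC1OE corpses and -0.59 ± 0.03 (adjusted p = 4.36e-18) with control corpses. Tfeb had 57.9, 64.0, 60.5 and 63.6 CPM with STC1OE corpses, 58.1, 60.4, 62.3 and 60.6 CPM with control corpses, and 74.9, 81.3, 80.9 and 80.9 CPM in macrophages alone (-0.37 ± 0.04, adjusted p = 3.28e-10, and -0.40 ± 0.04, adjusted p = 7.32e-11). Tfec, a relative found mainly in macrophages, was also lower (-0.22 and -0.25). Tfe3 averaged 142 ± 5.00 CPM with STC1OE corpses, 132 ± 5.17 CPM with control corpses and 133 ± 3.39 CPM in macrophages alone, and it was higher with STC1OE corpses than with control corpses (0.10 ± 0.03, adjusted p = 0.0405) and than in macrophages alone (0.10 ± 0.03, adjusted p = 0.00727). The call of Tfe3 between the corpse groups was lost in 6 of 12 cases of 1 library left out (adjusted p up to 0.189). These factors act from the nucleus once dephosphorylated, which transcript levels do not measure.

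Other genes of the lysosome, from lists that did not include the 36, were counted in the same way. Of 59 tested, 38 were higher and 12 lower with STC1OE corpses than in macrophages alone, 31 were higher and 12 lower with control corpses, and 10 were higher and 0 lower by edgeR with STC1OE than with control corpses. Over all genes tested, 21.4% were called higher and 22.4% lower with STC1OE corpses, and 19.7% and 20.5% with control corpses. Between the corpse groups these shares were 3.33% and 2.12%. The same shares of all genes apply to each list that follows. Among 21 other hydrolases, 12 were higher and 5 lower with STC1OE corpses, and 11 were higher and 6 lower with control corpses. Acp5, the tartrate-resistant acid phosphatase, rose by 1.06 ± 0.07 with STC1OE corpses and 1.01 ± 0.07 with control corpses, at a low level of 15.9, 15.4 and 7.59 CPM with STC1OE corpses, with control corpses and alone. Hgsnat, the transferase that acetylates heparan sulfate ahead of Naglu, fell by 0.83 and 0.84. Pld4, a phospholipase D family nuclease, had 2.22, 2.40, 2.09 and 33.8 CPM with STC1OE corpses, 2.04, 1.92, 2.21 and 2.16 CPM with control corpses, and 24.6, 24.1, 28.6 and 2.77 CPM in macrophages alone. Replicate 4 stood apart from the other 3 with STC1OE corpses and in macrophages alone, in opposite directions, and the call of Pld4 with control corpses (-3.25 ± 1.14, adjusted p = 0.047) was lost in 7 of 12 cases of 1 library left out (adjusted p up to 0.100).

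Of 18 other membrane proteins tested, 13 were higher and 3 lower with STC1OE corpses, and 11 were higher and 2 lower with control corpses. Gpnmb, a glycoprotein of lysosomes and melanosomes, averaged 24064 ± 719.8 CPM with STC1OE corpses, 21933 ± 1031 CPM with control corpses and 15610 ± 34.6 CPM in macrophages alone. Per kilobase of exon Gpnmb was below Psap in each group, at 3694, 3367 and 2396 CPM with STC1OE corpses, with control corpses and alone. Npc1, which exports cholesterol from the lysosome, rose by 0.60 and 0.48, and Scarb2, the receptor that carries glucocerebrosidase, by 0.60 and 0.55. The sorting list had 11 of 13 higher and 0 lower by edgeR with STC1OE corpses, and 8 higher and 0 lower with control corpses. Sort1, a sorting receptor, rose by 0.50 and 0.42, the adaptor Gga2 by 0.31 and 0.23, and M6pr, a mannose 6-phosphate receptor, by 0.23 and 0.20. Of the cathepsin inhibitors, Cstb rose by 0.54 and 0.38, while Cst3 fell by 0.07 and 0.09, a call lost with STC1OE corpses in 3 of 12 cases (adjusted p up to 0.0978). Between the corpse groups, Pld3 (0.18), Galns (0.15), Gpnmb (0.13), Laptm5 (0.13) and Igf2r (0.09) were higher with STC1OE corpses, the call of Igf2r being lost in 4 of 12 cases (adjusted p up to 0.0787).

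Markers of the macrophages and of other cells moved alongside these results. All 9 macrophage markers were detected in each group. They summed to 12258 to 13562 CPM with STC1OE corpses, 12672 to 14304 CPM with control corpses and 15368 to 16250 CPM in macrophages alone, led by Lyz2, Csf1r and Adgre1. The 17 melanocyte markers, the cell type of the corpses, summed to 17.1 to 18.9 CPM with STC1OE corpses, 21.3 to 26.4 CPM with control corpses and 8.56 to 9.78 CPM in macrophages alone. Tyrp1, a melanocyte enzyme, averaged 1.05 CPM with STC1OE corpses, 4.09 CPM with control corpses and 0.0313 CPM in macrophages alone. Gpr143 had no counts with STC1OE corpses, and Tyr, Oca2 and Gpr143 had none in macrophages alone. Against macrophages alone, 10 of the 12 melanocyte markers tested were higher with STC1OE corpses and 9 with control corpses, and between the corpse groups 1 was higher and 6 were lower with STC1OE. The melanocyte sum was lower with STC1OE than with control corpses. Whether the lines themselves express these markers alike was not measured, so the sum does not give the amount of corpse RNA. The part of corpse RNA in the lysosomal levels was not tested.

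The 8 neutrophil markers summed to 84.6 to 91.1 CPM with STC1OE corpses, 91.7 to 96.8 CPM with control corpses and 177 to 186 CPM in macrophages alone, with Ly6g at 0 counts in each group. The fibroblast list (6 genes) reached 15.2, 17.0 and 23.9 CPM at most with STC1OE corpses, with control corpses and alone, and the B cell list (6 genes) 4.74, 5.32 and 15.8 CPM. Lists for dendritic cells (6 genes), T and NK cells (5 genes) and mast cells with basophils (5 genes) stayed at or under 3.45 CPM in each library. The part of these markers in the lysosomal results was not tested.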

How the data were processed

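Each of the 12 libraries came as 1 file of raw read counts per gene that the authors deposited. The tools HISAT2, HTSeq and DESeq2 and the builds mm10 and GRCm38 are named, per the submitters' processing notes; versions, annotation release and strand use are not given in the sources used here. Lines that name no gene held 41.0% to 46.6% of reads and entered neither library sizes nor tests. Groups and replicate numbers came from the sample titles. Symbols and exon lengths came from GENCODE M21 by identifier, which named 54723 of 55604 genes and left 881 without a symbol.

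The counts were fitted with edgeR 4.0.16 under R 4.3.3, after filterByExpr (minimum count 10, minimum total 15) and with TMM scaling, by robust quasi-likelihood fits with 3 group means on all 12 libraries, two-sided, with Benjamini-Hochberg adjustment over all 16406 genes tested and a threshold of 0.05. Every adjusted p is from these fits, except those given for the same kind of fit on fewer libraries. The common biological coefficient of variation was 4.53%. The fits were tested on simulated counts first. P-values measure the spread between these libraries. Floors of 3 counts cover counting error only. Libraries within a group differed beyond sampling noise (chi-square per degree of freedom 2.73 to 17.2), so none was merged.

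The members and lists were chosen with earlier results of these data known, and sums and medians over them carry no p. All members may be named; of the other lysosomal lists, up to 3 called genes per list and comparison, taken by size of log2 fold change among genes averaging 2 CPM or more, and the transcription factors (some genes the rule admits are not reported here); of marker lists, the 3 highest, those at 0 counts and the sums. Alternatives were DESeq2 1.42.0, RLE and upper-quartile scaling, fits of 2 groups only, no low-count filter, a test against a fold of 1.2, a replicate block, replicates 1 and 2 or 3 and 4 alone, and each library left out in turn.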

Additional observations from a re-analysis of the deposited data

Results flagged for a closer look

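In 8 of 108 gene and group combinations, 1 of the 4 libraries stood apart from the other 3 by Dixon's test at the 95% level, which chance does in about 1 in 20. With STC1OE corpses, Gla (256 CPM) and Fuca1 (177 CPM) had their lowest value in replicate 1. In macrophages alone, replicate 1 was highest for Ctsb (11825 CPM) and Cd63 (546 CPM) and lowest for Neu1 (88.5 CPM), replicate 2 was lowest for Asah1 (232 CPM), replicate 3 was highest for Ctsz (927 CPM), and replicate 4 was highest for Gusb (631 CPM). None of these libraries crossed into the range of another group for Gla, Ctsb, Ctsz, Neu1 or Cd63.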

How the results depend on the processing

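Between STC1OE and control corpses, 9 to 17 lysosomal genes were higher and 0 to 1 lower with 1 library left out, and 474 to 1200 of all genes were called, against 893 with all libraries. Replicates 1 and 2 alone gave 0 higher genes and 33 calls in all, replicates 3 and 4 alone 1925 calls, and a test against a fold of 1.2 gave 0 and 4. Upper-quartile scaling called 1 gene lower. Against macrophages alone, leaving out 1 library gave 24 to 25 higher, 4 to 5 lower and 6646 to 7307 calls with STC1OE corpses, and 24 higher, 7 to 8 lower and 6016 to 6749 calls with control corpses. Replicates 1 and 2 alone gave 4650 and 4090 calls, and the test against 1.2-fold gave 1 lower and 2119 calls with STC1OE corpses and 14 higher, 3 lower and 1687 calls with control corpses. A replicate block gave 24 higher and 6 lower, 24 higher and 8 lower, and 16 higher and 0 lower in the 3 comparisons. With that block, 44.5%, 40.9% and 6.64% of all genes were called. Same-numbered replicates did not deviate together (correlations -0.0434 to 0.0912), so the numbers were not taken to pair the samples. Per total of assigned counts, without TMM factors, the summed level was 58088 CPM with STC1OE corpses, 57060 CPM with control corpses and 45460 CPM alone; proteases gave 30585, 30793 and 24887, glycosidases and sulfatases 3371.7, 3252 and 3095.7, lipid genes 20158, 19295 and 14524, and membrane proteins 3973.5, 3720 and 2953, so that between the corpse groups the proteases turned in direction. Signs turned for the few counts of Ifi30 and otherwise for values of at most 0.039 in size, none past the threshold, and the cause was not tested. With STC1OE corpses over macrophages alone, these were Idua (-0.036), Arsa (0.005) with replicates 1 and 2, Gm2a (0.039) with replicates 3 and 4 and Arsa (0.001) by DESeq2; with 1 library left out the ranges were -0.353 to 0.069 for Ifi30, -0.044 to 0.022 for Arsa and -0.040 to 0.010 for Gm2a. With control corpses over macrophages alone, Ifi30 was 0.009 by DESeq2, 0.126 with replicates 3 and 4 and -0.303 to 0.178 with 1 library left out, and Arsa was 0.008 with replicates 1 and 2. Tfe3 was 0.004 by DESeq2, unfiltered and with 2 groups, 0.003 with RLE scaling, 0.035 with replicates 3 and 4 and -0.022 to 0.033 with 1 library left out. With STC1OE over control corpses, replicates 3 and 4 gave Ctsl 0.006 and Lgmn 0.024, DESeq2 gave Lgmn 0.008 and Mitf 0.007, and RLE scaling gave Lgmn 0.004 and Mitf 0.003. Replicates 1 and 2 gave Ifi30 0.126, Arsa -0.002 and Mitf 0.001, and upper-quartile scaling gave Asah1 -0.008. With 1 library left out, Lgmn ranged over -0.017 to 0.016, Ifi30 -0.354 to 0.131, Arsa -0.011 to 0.049, Asah1 -0.010 to 0.019 and Mitf -0.018 to 0.007.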
